A study of Mus musculus with 10 samples.

Results

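The promoters of the nuclear genes that encode the mitochondrial respiratory chain were followed in ILC2s, the group 2 innate lymphoid cells, of 5 mouse tissues by ATAC-seq, in which the Tn5 transposase inserts adapters into accessible DNA so that the read count of a region rises with its accessibility. A region was a member when its centre lay within 1000 bp of a RefSeq transcription start site (TSS) of a protein-coding gene whose symbol starts with Nduf, Sdh, Uqcr, Atp5, or Cox4 to Cox8. This rule used no read counts and found 99 of the 50039 regions, at 94 of the 100 genes of these families. Cox6a2, Cox7b2, Cox8b, Cox8c, Ndufb4b, and Ndufb4c had no region within 1000 bp. The 99 regions comprised 41 of complex I, 4 of complex II, 8 of complex III, 14 of complex IV, 18 of complex V, and 14 of the Ndufaf and Sdhaf assembly factors. Ndufa4 and Ndufa4l2 were kept with complex I by their symbols, although the Ndufa4 protein is now placed in complex IV.

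The libraries came from wild-type male C57BL/6 mice aged 6 weeks, with 2 libraries of 50000 sorted ILC2s for each of small intestine (SI), large intestine (LI), pancreas, lung, and bone marrow (BM). Each pool held 10 mice for the intestinal tissues and 16 mice for lung, BM, and pancreas. The BM gate took Lin-ST2+CD25+ cells, that of lung, LI, and pancreas Lin-CD45+CD127+ST2+CD25+ cells, and that of SI Lin-CD127+CD45+KLRG1+ cells with low or intermediate Thy1. BM was flushed from bone and sorted on an instrument of its own, whereas the other tissues were digested with enzymes, so gate, sorter, and tissue preparation cannot be told apart from tissue. The methods call the libraries biological duplicates and do not say whether the mice of both libraries were different.

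The respiratory chain sits in the inner mitochondrial membrane. Complexes I and II pass electrons from NADH and succinate to coenzyme Q, complex III passes them on to cytochrome c, complex IV reduces oxygen, and complex V, the ATP synthase, uses the proton gradient that the electron transfer builds. Most subunits are encoded in the nucleus, and the transcription factors NRF-1, GABP, YY1, and the ERR receptors are known to bind promoters of many of these genes.

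Promoters of 7 members are printed, 1 from each complex, an assembly factor, and Atp5j. All but Atp5j belong to regions called higher in BM, as given below. The promoters were chosen because they show the binding motifs most often searched for in this family. They run 5′ to 3′ on the strand of the gene from 250 bases before to 30 bases after the RefSeq start in GRCm38.p6, and capitals mark CGCATGCG (NRF-1), CCGGAAG or its reverse complement CTTCCGG (the core bound by GABP and other ETS factors), and AANATGGCG (YY1). Their positions are chr19:3912745-3913024 on the minus strand, chr4:140961021-140961300 on the plus strand, chr10:80406792-80407071 on the minus strand, chr5:115348929-115349208 on the minus strand, chr11:115419890-115420169 on the minus strand, chr11:120098684-120098963 on the plus strand, and chr16:84834947-84835226 on the minus strand, in the order printed.
Ndufs8: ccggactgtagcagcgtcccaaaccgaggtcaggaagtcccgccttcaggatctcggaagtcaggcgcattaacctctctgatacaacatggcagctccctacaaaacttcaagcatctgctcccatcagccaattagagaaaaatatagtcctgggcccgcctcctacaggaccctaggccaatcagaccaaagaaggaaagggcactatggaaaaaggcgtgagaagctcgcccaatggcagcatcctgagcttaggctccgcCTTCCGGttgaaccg
Sdhb: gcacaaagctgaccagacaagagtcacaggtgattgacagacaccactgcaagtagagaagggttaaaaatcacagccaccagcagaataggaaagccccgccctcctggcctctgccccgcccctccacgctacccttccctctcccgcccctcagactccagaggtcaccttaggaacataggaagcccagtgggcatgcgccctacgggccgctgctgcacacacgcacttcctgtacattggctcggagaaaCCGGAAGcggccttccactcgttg
Uqcr11: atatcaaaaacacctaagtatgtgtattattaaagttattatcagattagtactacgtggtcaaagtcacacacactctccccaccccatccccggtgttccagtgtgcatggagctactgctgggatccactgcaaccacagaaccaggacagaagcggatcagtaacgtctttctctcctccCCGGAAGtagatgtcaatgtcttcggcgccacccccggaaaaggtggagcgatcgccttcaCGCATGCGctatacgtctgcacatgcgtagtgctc
Cox6a1: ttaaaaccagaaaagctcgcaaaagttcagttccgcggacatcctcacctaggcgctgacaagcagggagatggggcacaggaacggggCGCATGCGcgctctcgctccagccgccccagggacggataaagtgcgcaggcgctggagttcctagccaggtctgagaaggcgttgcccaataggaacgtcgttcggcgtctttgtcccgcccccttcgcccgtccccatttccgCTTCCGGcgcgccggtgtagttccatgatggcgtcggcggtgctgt
Atp5h: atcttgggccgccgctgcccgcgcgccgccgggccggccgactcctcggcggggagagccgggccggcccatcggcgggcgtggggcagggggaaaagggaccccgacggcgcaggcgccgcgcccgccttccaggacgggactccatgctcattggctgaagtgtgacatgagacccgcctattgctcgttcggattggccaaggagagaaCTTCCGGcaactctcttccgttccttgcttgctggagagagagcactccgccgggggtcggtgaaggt
Ndufaf8: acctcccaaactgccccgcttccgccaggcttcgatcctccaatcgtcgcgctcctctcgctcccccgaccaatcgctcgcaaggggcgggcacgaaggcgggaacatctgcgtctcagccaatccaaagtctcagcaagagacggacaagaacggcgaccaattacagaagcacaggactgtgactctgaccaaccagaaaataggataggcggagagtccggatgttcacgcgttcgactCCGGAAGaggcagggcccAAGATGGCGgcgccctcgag
Atp5j: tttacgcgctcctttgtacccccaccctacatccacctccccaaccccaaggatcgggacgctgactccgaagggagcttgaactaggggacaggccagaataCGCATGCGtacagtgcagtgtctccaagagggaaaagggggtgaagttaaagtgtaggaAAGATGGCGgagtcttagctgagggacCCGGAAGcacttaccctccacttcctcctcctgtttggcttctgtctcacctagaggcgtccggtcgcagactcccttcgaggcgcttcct

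Of the 94 genes with a member region, 79 had a promoter entry in the RefSeq table, and the genes without an entry included Atp5a1, Atp5mpl, Cox4i1, Cox4i2, Cox6c, Ndufa2, Ndufa4l2, Ndufaf6, Ndufb9, Ndufs1, Sdhc, Uqcrb, Uqcrc2, and Uqcrq. The search covered both strands from 250 bases before to 50 bases after the start. The palindromic NRF-1 motif CGCATGCG was found at 11 of the 79 genes (13.9%), against 4.29% of the 10244 protein-coding genes with an open promoter region and 2.77% of all 17492 genes in the table. AANATGGCG was found at 12 genes (15.2%), against 5.83% and 3.64%. The ERR motif TCAAGGTCA was found at Atp5g3 and Sdhd (2.53%), against 0.342% and 0.377%.

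The other motifs differed from the open promoters by smaller ratios, although the gap in percentage points was largest for the Sp1 core. CCGGAAG was found at 22 genes (27.8%), against 20.2% and 12.9%, and the longer CCGGAAGT, which contains it, at 5 genes (6.33%), against 9.15% and 5.69%. GGGCGG, the Sp1 core, was found at 48.1% of the 79 genes and 69.1% of open promoters. The cAMP response element TGACGTCA was found at 5.06% against 3.67%, CCAAT at 43% against 43.4%, and TATAAA at 8.86% against 8.65%. These motifs were chosen after a trial count in these promoters, and the shares describe letters in a fixed window.

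The members lay close to the start sites, and their median level was above that of promoter regions. The median distance of a member's centre from its TSS was 80 bp, and 56 of 99 were within 100 bp. Only 3 members lay over 500 bp away, the farthest being the upstream region of Sdhaf2 at 944 bp, and 5 regions just outside the rule lay at 1030 bp (Ndufaf4), 1168 bp (Cox6a1), 1201 bp (Ndufb1), 1205 bp (Atp5d), and 1947 bp (Ndufa4l2). The mean level over the 10 libraries had a median of 37.8 CPM, the count per 1000000 reads of a library with its total scaled by TMM, over the members, 23.2 over the 14081 protein-coding promoter regions tested, and 7.33 over all 49981 regions tested. The median widths were alike, at 580, 569, and 532 bp. The median GC content was 60% in the members, 62.5% in the promoter regions, and 49.8% in all regions.

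Many of these promoters are shared with another gene. A TSS of a further protein-coding gene lay within 1000 bp of 39 of the 99 members (39.39%), against 9.64% of the protein-coding promoter regions. Examples are Atp5j with Gabpa, which encodes the DNA-binding subunit of GABP, Ndufa7 with Rps28, Ndufb5 with Mrpl47, Ndufs6 with Mrpl36, Uqcrq with Gdf9, and Sdhd with Timm8b. Counts at such a region cannot be assigned to either gene.

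Total counts per library lay between 10282987 and 32797872, and the count of the median region between 71 in pancreas replicate 2 and 259 in lung replicate 2. All 12 listed ILC2 marker genes had regions, whose summed level lay between 333 and 505 CPM over the 10 libraries. None of the listed markers of mast cells and basophils or of NK cells and ILC1s had a region, nor did Cd3d, Cd4, Cd8a, Cd79a, Ms4a1, Pax5, Lyz2, Csf1r, Itgam, Mpo, Elane, and S100a8. Regions were present for 1 of 5 B cell markers, with summed levels between 1.41 and 8.52 CPM over the libraries. For 2 of 8 myeloid markers the sums lay between 18.5 and 39.8 CPM. For 2 of 4 stromal and endothelial markers they lay between 29.4 and 38.4 CPM. They lay between 4.06 and 13.3 CPM for 1 of 3 ILC3 markers, and between 16.6 and 39.2 CPM for 1 of 4 pancreatic acinar markers. No summed marker level other than the erythroid one was higher in both BM libraries than in the other 8. Members of SI replicate 1 were lower than those of SI replicate 2 in 76 of 99 cases, with a median log2 difference of -0.246 (replicate 1 minus replicate 2). The same median was 0.109 in BM, 0.089 in pancreas, -0.006 in LI, and -0.059 in lung.

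Over the 5 tissues, 29 of the 99 members (29.29%) differed in edgeR's quasi-likelihood F test with an adjusted p under 0.05, against 44.2% of all regions and 29.2% of promoter regions. The members' share was close to that of promoter regions. The member count was lower without BM replicate 1, LI replicate 2, or either lung library, and higher without SI replicate 2. In each of these fits the share of all regions called moved in the same direction. Of the 29, 27 had their highest mean in BM, and the exceptions were Cox7a1, highest in lung, and Ndufb10, highest in SI. Over all 99 members the highest mean was in BM for 74, in lung for 10, in SI for 8, in LI for 4, and in pancreas for 3. The lowest mean was in LI for 40, in pancreas for 38, in SI for 15, in lung for 4, and in BM for 2. The median range of tissue means was 0.601 on the log2 scale in members, 0.641 in promoter regions, and 0.915 in all regions.

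**Figure D1:**
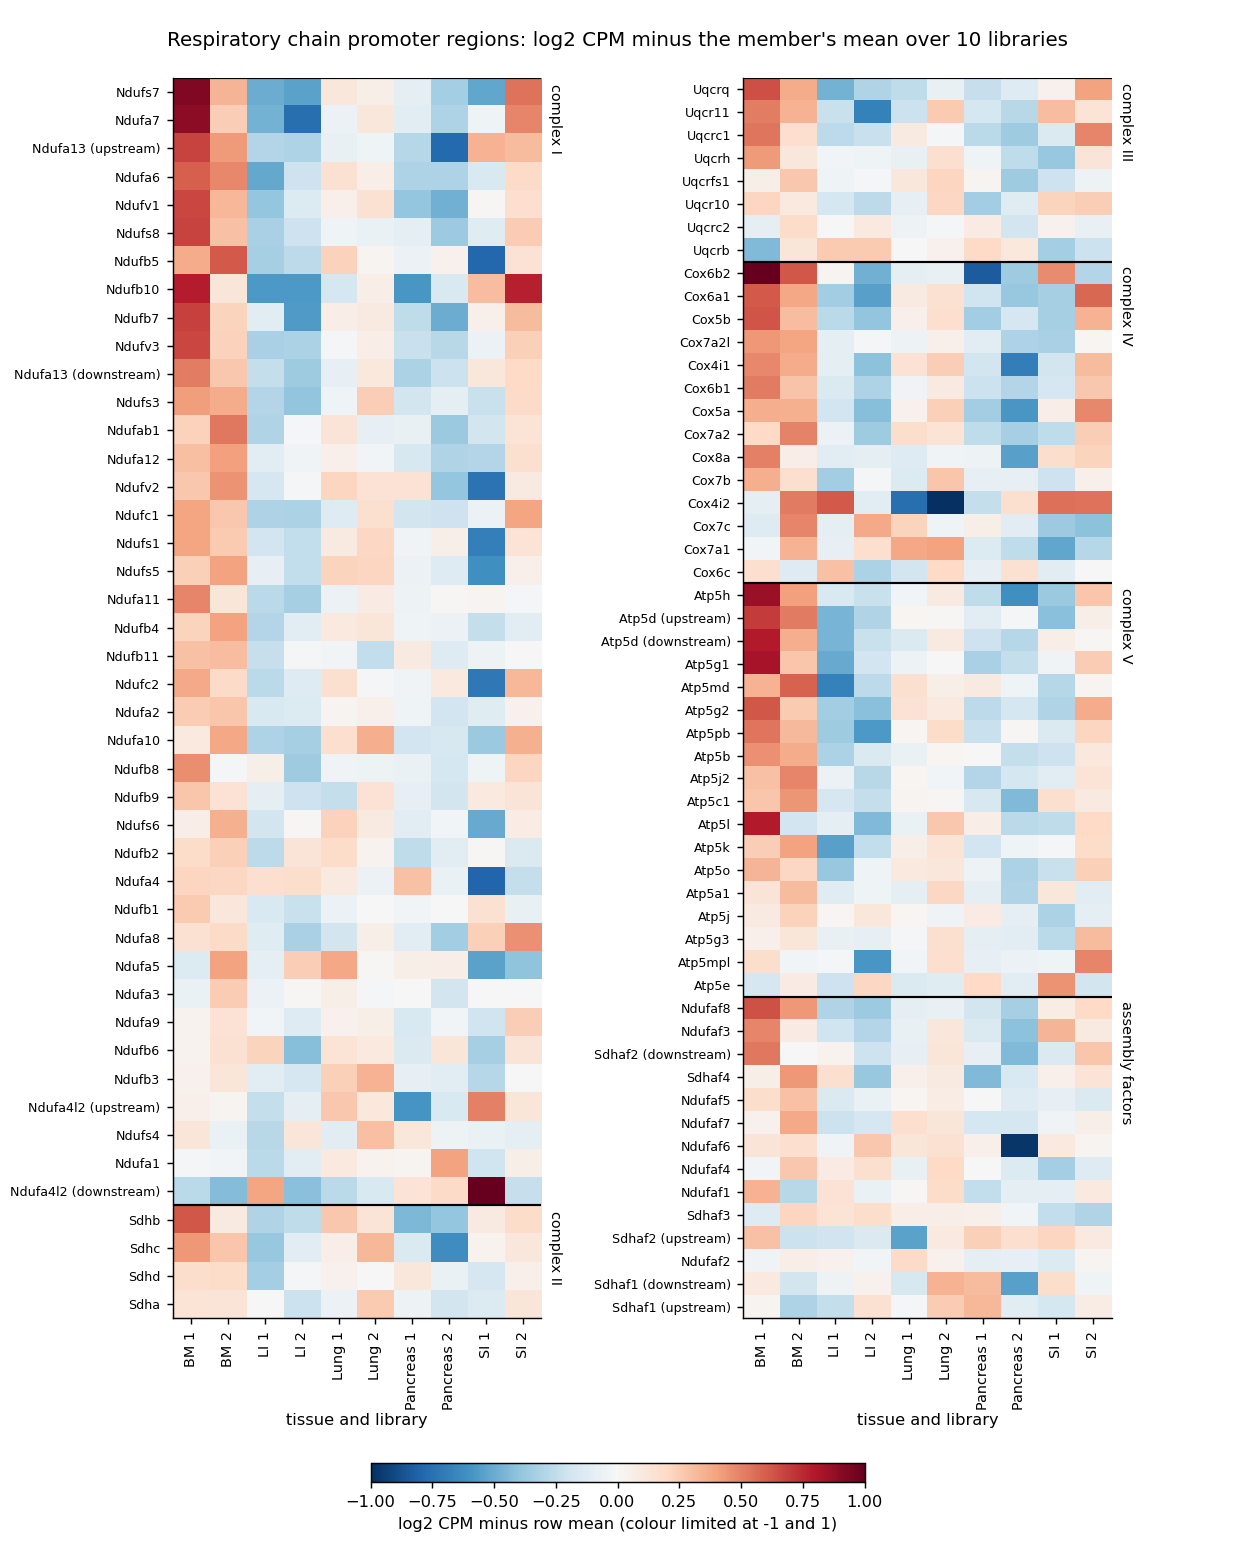
Each row is a member region, with 1 member not drawn, and each column a library. Colour gives log2 CPM minus the member's mean over the 10 libraries, and rows are ordered within each complex by the BM fold change. Red is most frequent in both BM columns, and SI 1 is bluer than SI 2, in which 76 of 99 members were higher.

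Most member calls lay in BM against the mean of the other 4 tissues. Here 40 of 99 members (40.4%) were higher in BM with an adjusted p under 0.05, against 14.9% of all regions and 23% of promoter regions. No member was lower in BM, against 17% of all regions and 5.54% of promoter regions. The count of lower members was also 0 at an unadjusted p under 0.05 and 0 with DESeq2, which called 45 higher. The median log2 fold change was 0.365 over the members, 0.206 over promoter regions, and 0.001 over all regions, and 93 of 99 members lay above 0. Values given with ± for single members are log2 fold changes with their SE, in BM against the mean of the other 4 unless another contrast is named. Both BM libraries were above the other 8 in 36 members, a pattern found in 13.1% of all regions and 21.84% of promoter regions.

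Several measured features moved with this contrast. Regions of the erythroid markers, present for 3 of 4 genes and absent for Klf1, summed to between 28.5 and 52.6 CPM in BM and between 10.6 and 22 CPM in the other libraries, and their part in the result was not tested. The regions at T cell markers, present for 2 of 5 genes, summed to between 5.98 and 6.02 CPM in BM and between 6.36 and 13.3 CPM elsewhere, and those at epithelial markers, present for 3 of 4 genes, to between 9.88 and 12.1 CPM and between 14 and 30.7 CPM. With the trend of fold change in GC content and width removed, the BM median was 0.273 and 24 members were higher. In that fit 15.9% of all regions and 13.4% of promoter regions were higher. With normalization and fit on promoter regions only, an alternative added after seeing the data, the median was 0.16 and 13 members were higher, against 7.24% of promoter regions. Without BM replicate 1 the median was 0.346 but only 4 members (Atp5d upstream, Atp5md, Ndufa6, and Ndufaf8) were called, against 4.51% of all regions; the lone BM library was then taken to vary like the other tissues. Fewer members were called higher without BM replicate 2 (median 0.363) or lung replicate 1 (0.352). Without SI replicate 2 (0.387) more were called higher, and a lower call appeared. In these 3 fits the shares of all regions and of promoter regions higher in BM moved in the same directions.

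**Figure D2:**
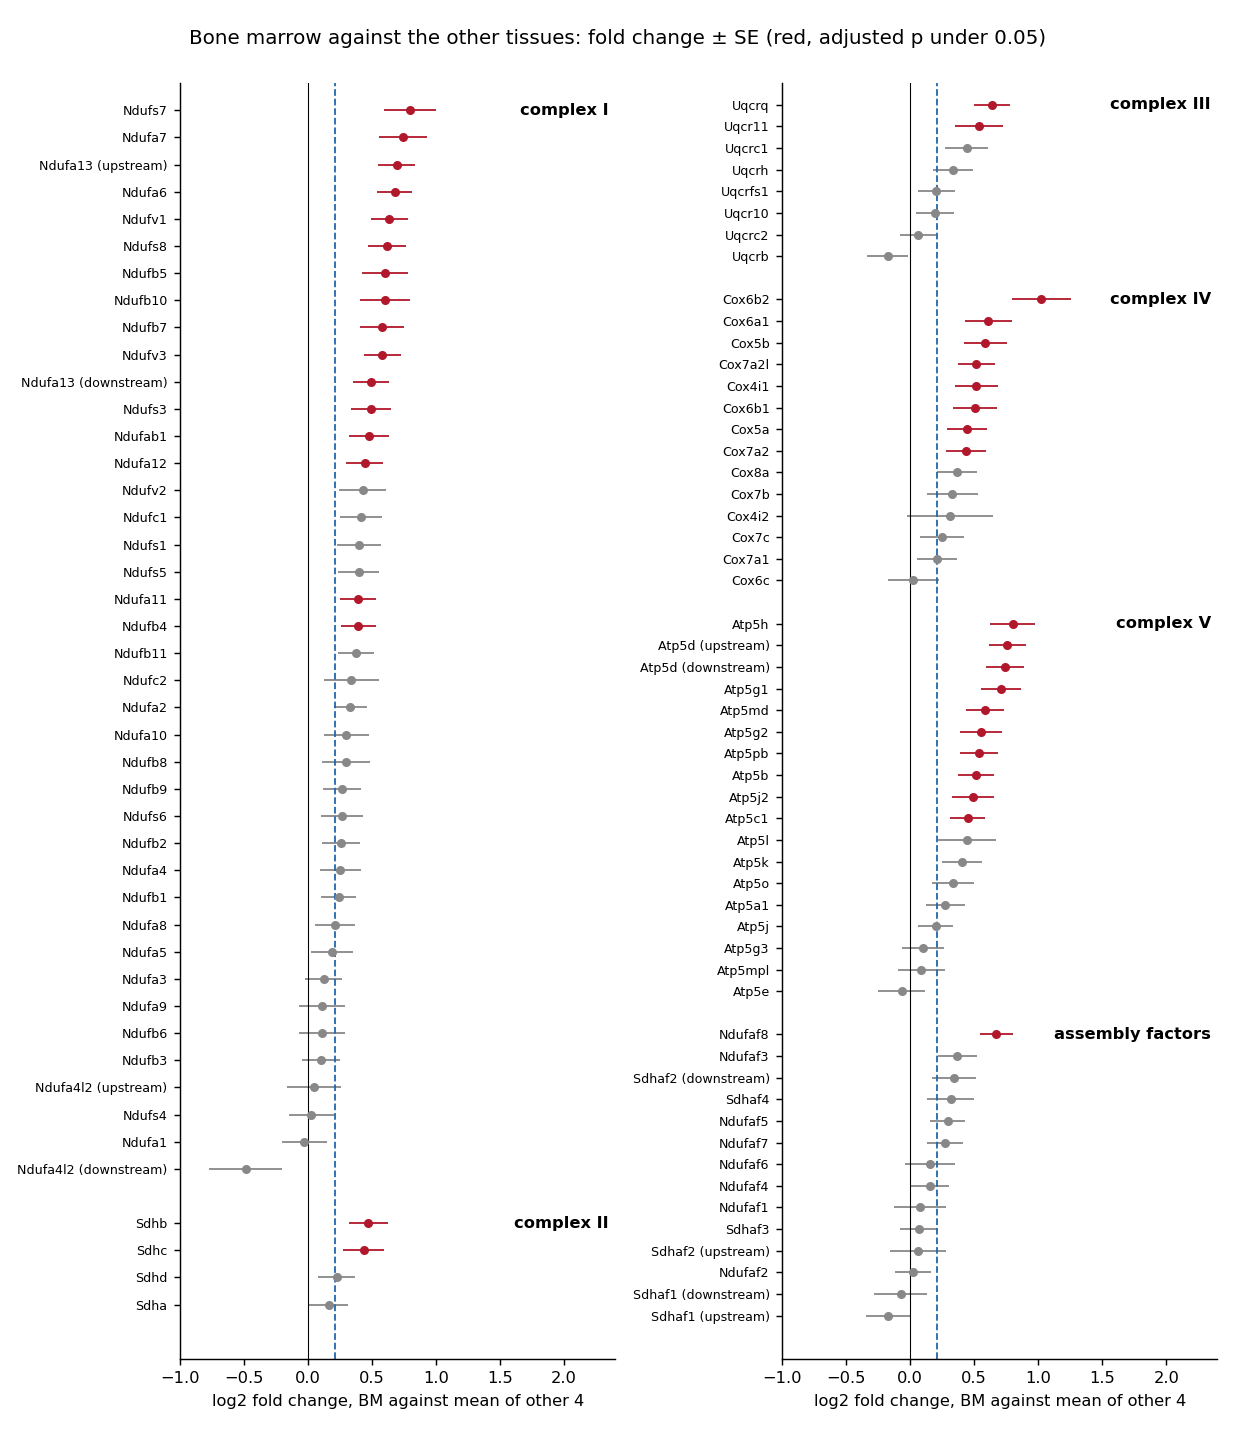
Points give the log2 fold change of each member, with 1 not drawn, in BM against the mean of the other 4 tissues, with bars of ± SE from edgeR. Red points have an adjusted p under 0.05, and the dashed line marks 0.206, the median of all protein-coding promoter regions. All red points lie above 0.

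Complex I had 17 of 41 regions called higher in BM, with a median log2 fold change of 0.391, and 10 of 41 called over the 5 tissues. For this and the other complexes, the shares to compare are 14.9% of all regions and 23% of promoter regions higher in BM. Over the 5 tissues they are 44.2% and 29.2%. Its core subunits carry the flavin and the iron-sulfur clusters. Ndufv1, which binds the flavin and accepts electrons from NADH, had 72.9 and 57.7 CPM in BM, 47.4 and 50.8 in lung, 34.9 and 32.8 in pancreas, 34.96 and 41.6 in LI, and 46.2 and 51.4 in SI at chr19:4012507-4013036. Both BM libraries were above the other 8, and the fold change was 0.64 ± 0.14 SE, adjusted p = 0.0031. Ndufs8, an iron-sulfur subunit whose promoter opens the printed set, had 111 and 84.8 CPM in BM, 66.96 and 66.1 in lung, 64.7 and 53.7 in pancreas, 55.1 and 59.7 in LI, and 63.7 and 82.5 in SI at chr19:3912548-3913092. The groups did not overlap between BM and the rest (log2 fold change 0.62 ± 0.15 SE, adjusted p = 0.00525).

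Ndufs7, which holds the cluster next to the coenzyme Q site, had the largest fold change of the complex. Its levels were 88.7 and 59.2 CPM in BM, 50.5 and 48.7 in lung, 43.5 and 36.8 in pancreas, 33.04 and 32.2 in LI, and 32.5 and 68.1 in SI. BM replicate 1 was highest, SI replicate 1 and LI were lowest, SI replicate 2 was above BM replicate 2, and the BM contrast was log2 fold change 0.80 ± 0.20 SE, adjusted p = 0.00745. Of the other core subunits, Ndufs3 (0.49 ± 0.16) was called higher in BM, while Ndufv2 (0.43 ± 0.18) and Ndufs1 (0.39 ± 0.17, at a region shared with Eef1b2) were not called. For Ndufv2 and Ndufs1 both BM libraries were nonetheless above the other 8, and SI replicate 1 was the lowest library in each.

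Supernumerary subunits surround the core of complex I, and 12 of 31 regions outside the Ndufa4 family were higher in BM, with a median of 0.336. Ndufa7, at a region shared with the ribosomal gene Rps28, had 40.5 and 25.9 CPM in BM, 20.9 and 23.6 in lung, 20.3 and 17.6 in pancreas, 15.7 and 12.9 in LI, and 21.1 and 30.6 in SI. It was higher in BM (log2 fold change 0.74 ± 0.19 SE, adjusted p = 0.00686) and lower in LI (log2 fold change -0.79 ± 0.21 SE, adjusted p = 0.0245), although SI replicate 2 overlapped BM. Ndufa6, a subunit of the LYR family at chr15:82354092-82354641, had 88.6 and 81.7 CPM in BM, 64.9 and 61.1 in lung, 46.99 and 47.1 in pancreas, 40.9 and 50.4 in LI, and 52.6 and 66.7 in SI. Its BM fold change was 0.67 ± 0.14 SE, adjusted p = 0.00186, and its call held in each fit that left out a library.

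Ndufa13, whose protein is also known as GRIM-19, had 2 regions. The upstream region had 85.8 and 72.1 CPM in BM, 50.8 and 52.00 in lung, 43.9 and 31.3 in pancreas, 43.8 and 43.2 in LI, and 68.3 and 66.7 in SI. Pancreas was low and BM and SI were high, so that the region was higher in BM (log2 fold change 0.69 ± 0.14 SE, adjusted p = 0.0019), lower in pancreas (log2 fold change -0.64 ± 0.16 SE, adjusted p = 0.0168), and lower in pancreas than in SI (log2 fold change -0.84 ± 0.19 SE, adjusted p = 0.00588). The downstream region was higher in BM by 0.49 ± 0.14. Both are shared with Tssk6.

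Ndufb10, a membrane arm subunit, was high in SI as well as in BM. Its levels were 30.4 and 19.1 CPM in BM, 15.5 and 18.4 in lung, 11.7 and 15.8 in pancreas, 11.8 and 11.8 in LI, and 21.9 and 30.2 in SI. SI and BM replicate 1 were high and LI was low, and the region was called higher in BM (log2 fold change 0.60 ± 0.20 SE, adjusted p = 0.0277), higher in SI (log2 fold change 0.69 ± 0.19 SE, adjusted p = 0.0166), and lower in LI (log2 fold change -0.74 ± 0.22 SE, adjusted p = 0.04). The remaining supernumerary subunits called higher in BM were Ndufb5 (0.60 ± 0.18), Ndufb7 (0.58 ± 0.17), Ndufv3 (0.58 ± 0.15), Ndufab1 (0.48 ± 0.16), which also serves as the mitochondrial acyl carrier protein, Ndufa12 (0.44 ± 0.15), Ndufa11 (0.39 ± 0.14), and Ndufb4 (0.39 ± 0.14). Ndufa9 showed little change, with tissue means that spanned 0.18 on the log2 scale and an adjusted p of 0.917 over the 5 tissues.

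Ndufa5 and Ndufa4 were lowest in SI instead. Ndufa4 had 67.9 and 67.4 CPM in BM, 62.1 and 56.1 in lung, 71.8 and 55.8 in pancreas, 65.8 and 66.2 in LI, and 33.8 and 49.6 in SI at a region shared with Phf14. Both SI libraries were below the other 8 (log2 fold change -0.62 ± 0.17 SE, adjusted p = 0.0138). Ndufa5, a subunit of the matrix arm, had 66.7 and 96.96 CPM in BM, 95.8 and 73.6 in lung, 76.03 and 76.6 in pancreas, 68.7 and 86.9 in LI, and 50.4 and 55.3 in SI, again with both SI libraries lowest (log2 fold change -0.60 ± 0.17 SE, adjusted p = 0.0198).

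Complex II, succinate dehydrogenase, also belongs to the tricarboxylic acid cycle, and 2 of its 4 regions were higher in BM (median 0.328). Sdhb, the iron-sulfur subunit at chr4:140961068-140961614, had 67.6 and 46.8 CPM in BM, 52.9 and 48.03 in lung, 32.1 and 33.5 in pancreas, 35.6 and 36.8 in LI, and 46.7 and 49.95 in SI. BM replicate 1 was highest and pancreas and LI lowest, while lung and SI reached BM replicate 2, and the region was higher in BM (log2 fold change 0.47 ± 0.15 SE, adjusted p = 0.0244) and lower in pancreas (log2 fold change -0.53 ± 0.16 SE, adjusted p = 0.0479). Sdhc, a membrane anchor, was higher in BM by 0.43 ± 0.16 (adjusted p = 0.0462), whereas the other anchor Sdhd (0.22 ± 0.14) and the flavoprotein Sdha (0.16 ± 0.15) were not called.

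Complex III had 2 of 8 regions called higher in BM (25%, median 0.270), close to the 23% of promoter regions (median 0.206). Uqcrq, a small subunit at a region shared with Gdf9, had 119.9 and 99.4 CPM in BM, 64.2 and 72.7 in lung, 65.5 and 70.1 in pancreas, 55.4 and 62.3 in LI, and 78.96 and 101 in SI. SI replicate 2 was between the BM libraries, and the other 7 libraries were below both (log2 fold change 0.64 ± 0.14 SE, adjusted p = 0.00309). Uqcr11, whose promoter holds the NRF-1 motif and CCGGAAG, had 18.5 and 16.5 CPM in BM, 11.2 and 15.6 in lung, 11.4 and 10.7 in pancreas, 11.1 and 8.08 in LI, and 16.03 and 14.2 in SI, with BM above the rest (log2 fold change 0.53 ± 0.19 SE, adjusted p = 0.0391). Uqcrfs1, the Rieske iron-sulfur protein, was not called at 0.20 ± 0.15, and neither were the core proteins Uqcrc1 (0.44 ± 0.17) and Uqcrc2 (0.06 ± 0.14).

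Complex IV, cytochrome c oxidase, had 8 of 14 regions called higher in BM (median 0.440). Cox6a1, whose promoter holds CGCATGCG and CTTCCGG, had 57.6 and 49.3 CPM in BM, 40.2 and 41.9 in lung, 32.8 and 29.01 in pancreas, 29.6 and 25.8 in LI, and 29.9 and 56.1 in SI. SI replicate 2 lay between the BM libraries, and LI, pancreas, and SI replicate 1 were lowest (log2 fold change 0.61 ± 0.18 SE, adjusted p = 0.0181). Cox5a, a matrix-side subunit, had 37.5 and 37.5 CPM in BM, 30.1 and 34.5 in lung, 22.97 and 19.5 in pancreas, 25.6 and 21.7 in LI, and 30.6 and 40.9 in SI, and was higher in BM (log2 fold change 0.44 ± 0.16 SE, adjusted p = 0.0415) and lower in pancreas (log2 fold change -0.58 ± 0.17 SE, adjusted p = 0.0415), while SI replicate 2 was above BM. Cox5b (0.59 ± 0.17) and Cox7a2l (0.52 ± 0.14), a factor that joins complexes III and IV into supercomplexes, were also called. Cox8a (0.36 ± 0.16), Cox7b (0.33 ± 0.20), Cox7c (0.25 ± 0.17), and Cox6c (0.02 ± 0.20) were not.

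Several subunits of complex IV exist in tissue-bound isoforms, which are given beside their common partners. Cox6b2, best known from testis, had 14.5 and 11.1 CPM in BM, 6.70 and 6.82 in lung, 4.004 and 5.61 in pancreas, 7.32 and 5.13 in LI, and 10.01 and 5.85 in SI at chr7:4752634-4753360. Both BM libraries were above the other 8, and the fold change was the largest of all members in BM (log2 fold change 1.02 ± 0.23 SE, adjusted p = 0.00311). Its partner Cox6b1 had 23.00 and 19.6 CPM in BM, 15.7 and 17.1 in lung, 13.8 and 13.1 in pancreas, 14.5 and 12.9 in LI, and 14.3 and 19.3 in SI and was also higher in BM (log2 fold change 0.51 ± 0.17 SE, adjusted p = 0.0333).

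Cox7a1, the isoform of heart and skeletal muscle, had 34.3 and 44.4 CPM in BM, 45.7 and 46.1 in lung, 31.7 and 29.2 in pancreas, 32.95 and 39.3 in LI, and 24.4 and 28.7 in SI at chr7:30183865-30184400. Lung was high with little spread and SI was low, and the region was higher in lung (log2 fold change 0.49 ± 0.15 SE, adjusted p = 0.0401) and lower in SI (log2 fold change -0.50 ± 0.16 SE, adjusted p = 0.0338), but not called in BM (0.21 ± 0.15). Its partner Cox7a2 had 50.8 and 62.3 CPM in BM, 49.9 and 48.4 in lung, 36.98 and 34.9 in pancreas, 42.3 and 34.5 in LI, and 37.1 and 52.4 in SI and was higher in BM (log2 fold change 0.44 ± 0.16 SE, adjusted p = 0.0423). Whether the contrasts of Cox7a1 and Cox7a2 differ from each other was not tested.

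Cox4i2, an isoform known from lung and from low oxygen, had 2.15 and 3.36 CPM in BM, 1.33 and 0.966 in lung, 1.94 and 2.59 in pancreas, 3.57 and 2.13 in LI, and 3.42 and 3.41 in SI. Both lung libraries were below the other 8, and the region was lower in lung against the mean of the others (log2 fold change -1.28 ± 0.37 SE, adjusted p = 0.0319). With counts thinned to the smallest library this call was lost. Cox4i2 had the lowest mean level of all members, 2.49 CPM, and was not called over the 5 tissues. Its partner Cox4i1 had 65.2 and 60.5 CPM in BM, 51.7 and 55.6 in lung, 41.3 and 28.9 in pancreas, 44.02 and 35.3 in LI, and 41.3 and 58.2 in SI, with BM above the rest (log2 fold change 0.52 ± 0.17 SE, adjusted p = 0.0251). Ndufa4l2, the low-oxygen isoform of Ndufa4, had 2 regions without a call in any tissue. Its downstream region had 9.20 and 8.19 CPM in BM, 9.21 and 10.02 in lung, 12.2 and 12.7 in pancreas, 14.7 and 8.30 in LI, and 23.2 and 9.47 in SI, and SI replicate 1 was the highest library.

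**Figure D3:**
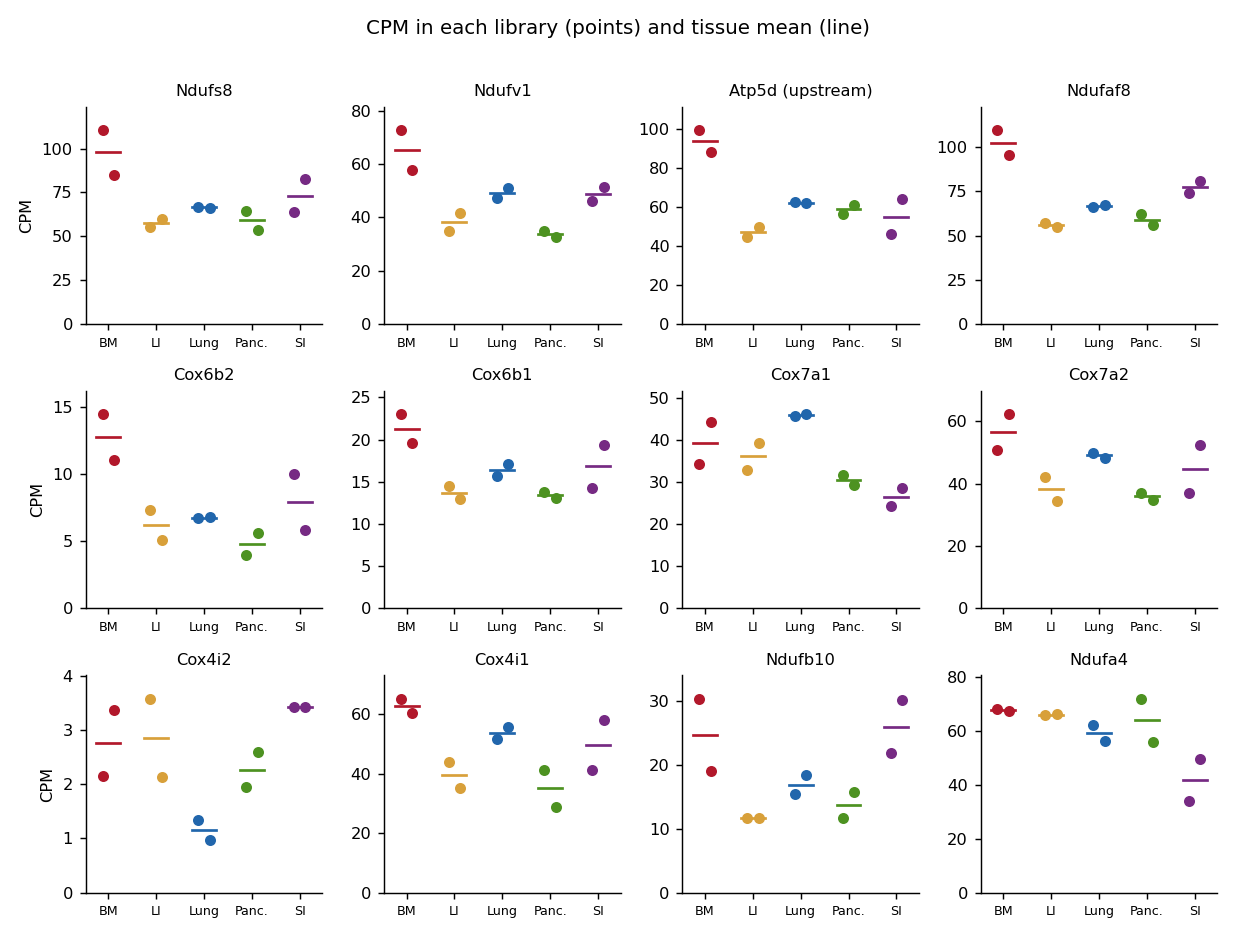
Points give the CPM of each library and lines the mean of each tissue for 12 members, with an axis that starts at 0 in each panel. BM is highest for Ndufs8, Ndufv1, Atp5d (upstream), Ndufaf8, and Cox6b2, lung is highest for Cox7a1 and lowest for Cox4i2, and SI is lowest for Ndufa4.

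Complex V had 10 of 18 regions called higher in BM and the highest median of the complexes, 0.469. Atp5d, the delta subunit of the central stalk, had 2 regions. The upstream region at chr10:80141225-80141749 had 99.5 and 88.03 CPM in BM, 62.3 and 61.9 in lung, 56.6 and 60.9 in pancreas, 44.4 and 49.7 in LI, and 46.03 and 63.95 in SI. The downstream region at chr10:80142005-80142549 had 63.7 and 47.2 CPM in BM, 33.1 and 39.03 in lung, 31.8 and 30.1 in pancreas, 26.5 and 31.4 in LI, and 38.4 and 36.9 in SI. In each, both BM libraries were above the other 8, with log2 fold change 0.76 ± 0.14 SE, adjusted p = 0.000906 upstream and log2 fold change 0.74 ± 0.15 SE, adjusted p = 0.00153 downstream.

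Atp5h, the d subunit of the peripheral stalk, had 58.5 and 42.6 CPM in BM, 31.5 and 34.2 in lung, 26.9 and 20.9 in pancreas, 28.9 and 27.5 in LI, and 24.8 and 38.9 in SI at a region shared with Kctd2. BM was above the rest (log2 fold change 0.80 ± 0.18 SE, adjusted p = 0.0027). Atp5g1, which encodes the c subunit of the rotor ring, had 149.5 and 102 CPM in BM, 81.6 and 84.1 in lung, 67.3 and 71.7 in pancreas, 59.5 and 73.8 in LI, and 82.3 and 101 in SI, again with BM above the rest (log2 fold change 0.71 ± 0.15 SE, adjusted p = 0.00262). Of the other genes for the same c subunit, Atp5g2 was called (0.55 ± 0.16) and Atp5g3 was not (0.10 ± 0.17).

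Among the other subunits, Atp5b, the catalytic beta subunit, was higher in BM at 0.52 ± 0.14, whereas Atp5a1, the alpha subunit, was not called at 0.27 ± 0.15. Atp5c1, the gamma subunit (0.45 ± 0.14), Atp5pb, the b subunit (0.54 ± 0.15), Atp5md (0.59 ± 0.15), and Atp5j2 (0.49 ± 0.16) were also higher in BM. Atp5pb (log2 fold change -0.58 ± 0.16 SE, adjusted p = 0.0266) and Atp5md (log2 fold change -0.58 ± 0.16 SE, adjusted p = 0.0308) were lower in LI. Atp5j, which shares its region with Gabpa and holds all 3 motifs in the printed promoter, had 98.8 and 109 CPM in BM, 94.1 and 90.9 in lung, 98.3 and 86.9 in pancreas, 94.2 and 101 in LI, and 74.7 and 86.8 in SI. Its libraries overlapped between tissues, and it was not called over the 5 tissues (adjusted p = 0.445) or in BM (0.20 ± 0.14).

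Assembly factors help to build complexes I and II without being part of them, and few of their regions were called. In all, 1 of 14 regions was called higher in BM (7.14%), with a median of 0.154, against 39 of 85 subunit regions (45.9%) with a median of 0.394. The difference between these groups was not tested. The same share was 14.9% over all regions, and 23% over promoter regions with a median of 0.206. The called region belonged to Ndufaf8, a partner of Ndufaf5, and is shared with Tepsin at chr11:120098645-120099169. It had 109.8 and 95.3 CPM in BM, 65.98 and 67.2 in lung, 62.1 and 55.98 in pancreas, 57.3 and 54.8 in LI, and 74.1 and 81.1 in SI. Both BM libraries were above the other 8 (log2 fold change 0.67 ± 0.13 SE, adjusted p = 0.00111), and the call held in all fits that left out a library. The upstream region of Sdhaf1, which serves iron-sulfur insertion into Sdhb, had 113 and 89.5 CPM in BM, 109.8 and 132 in lung, 139 and 102 in pancreas, 93.8 and 123 in LI, and 98.1 and 116 in SI, with overlapping tissues and a BM fold change of -0.17 ± 0.17. Sdhaf3 (0.06 ± 0.14) and both regions of Sdhaf2 (0.06 ± 0.22 upstream and 0.34 ± 0.17 downstream) were not called.

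**Figure D4:**
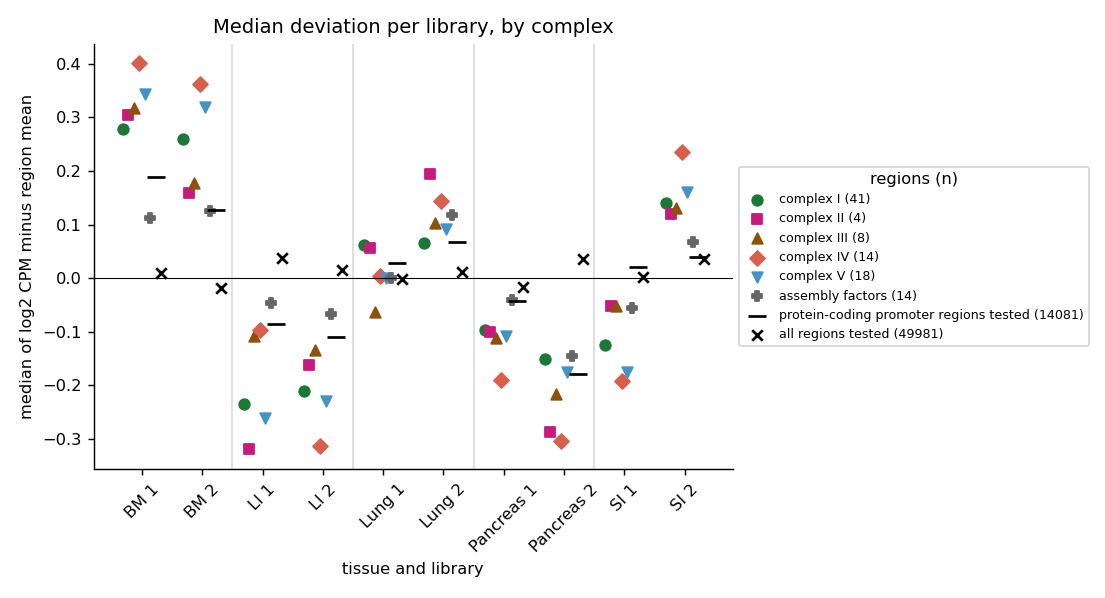
Symbols give, for each library, the median over the regions of a complex of log2 CPM minus the region's mean, beside the same for all promoter regions and all regions tested. Both BM libraries are highest for complexes I, III, IV, and V (0.178 to 0.401), in complex II lung 2 at 0.195 lies above BM 2 at 0.158, the assembly factors lie at 0.112 and 0.126 in BM, and each complex lies below 0 in SI 1 and above 0 in SI 2.

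Fewer members were called in the other tissues. In LI, 0 members were higher, against 8.8% of all regions, and 4 were lower (Ndufa7, Ndufb10, Atp5md, and Atp5pb), against 1.27%, with a median log2 fold change of -0.236. In pancreas, 0 were higher, against 8.27%, and 4 were lower (Ndufa13 upstream, Ndufv1, Sdhb, and Cox5a), against 2.11%, with a median of -0.194. Promoter regions had medians of -0.127 in LI and -0.148 in pancreas, and 1.85% of them were higher in LI and 1.85% in pancreas, while 1.59% and 1.7% were lower. The counts of 0 higher members were also 0 in both tissues at an unadjusted p under 0.05 with edgeR and 0 with DESeq2. At that unadjusted level 28 members were lower in LI and 19 in pancreas. Beside these, 3978 of all 49981 regions and 2053 of the 14081 promoter regions were lower in LI, and 4520 and 1863 in pancreas. Without SI replicate 1, 16 members were lower in LI and 7 in pancreas. In LI, none was lower without either LI library or without lung replicate 2, and 2 were lower without BM replicate 1, lung replicate 1, or pancreas replicate 1. In pancreas, none was lower without pancreas replicate 2, 1 without BM replicate 1, LI replicate 2, or either lung library, and 2 without LI replicate 1 or pancreas replicate 1.

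In lung, 1 member was higher (Cox7a1), against 6.53% of all regions, and 1 was lower (Cox4i2), against 7.03%. Without LI replicate 1 or either lung library no member was called in lung, without BM replicate 1 or either pancreas library none was higher, and without BM replicate 2 none was lower. In SI, 1 was higher (Ndufb10), against 11.8%, and 3 were lower (Ndufa4, Ndufa5, and Cox7a1), against 10.2%. Of promoter regions, 2.33% were higher and 2.58% lower in lung, and 6.41% were higher and 3.74% lower in SI. The medians were 0.074 in lung and 0.028 in SI, beside 0.050 and 0.044 for promoter regions. Scaling by library size alone shifted the median of all regions to 0.177 in lung and 0.198 in SI, and the calls were then 2 higher and 1 lower in lung and 7 higher and 0 lower in SI. Relative to all regions the members' medians were 0.078 in lung and -0.002 in SI under that scaling, close to 0.077 and -0.004 with TMM. Without SI replicate 2, 9 members were lower and 1 higher in SI, and without SI replicate 1, 2 were higher and 0 lower. Without LI replicate 1 or pancreas replicate 1, 2 were higher.

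**Figure D5:**
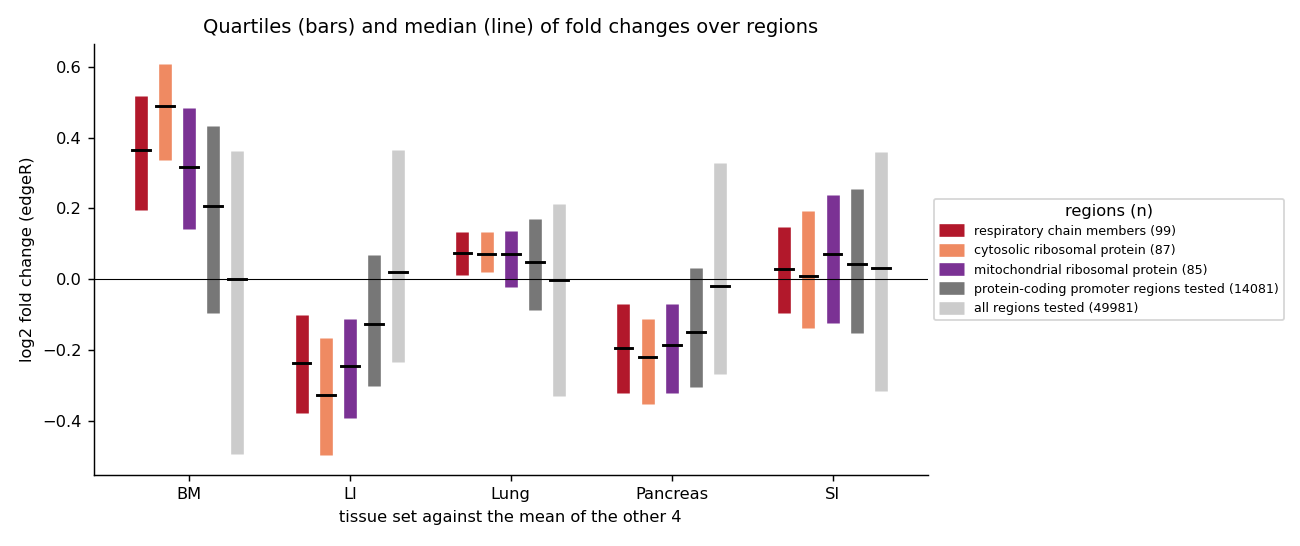
Bars span the lower to the upper quartile of log2 fold changes over regions, and black lines mark the median, for each tissue against the mean of the other 4. The members' medians are 0.365 in BM, 0.074 in lung, 0.028 in SI, -0.194 in pancreas, and -0.236 in LI, and those of cytosolic and mitochondrial ribosomal protein promoters in BM are 0.489 and 0.316.

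Set against each tissue in turn, BM was higher at 40 members than LI (12.6% of all regions), at 35 than pancreas (9.89%), at 9 than SI (10.7%), and at 7 than lung (7.56%). It was lower at 0 members in each of these contrasts, against 18.3% of all regions for LI, 14.3% for pancreas, 15.1% for SI, and 11.5% for lung, and DESeq2 also called 0 lower. At an unadjusted p under 0.05, 0 members were lower in BM than in LI, pancreas, and lung, and 1 was lower than in SI. Promoter regions were higher in BM in 22.1% of cases against LI, 18.8% against pancreas, 8.54% against SI, and 4.67% against lung. The members' shares of 40.4% against LI and 35.4% against pancreas were above those of all regions and of promoter regions. Their shares of 9.09% against SI and 7.07% against lung lay between the share of promoter regions and the share of all regions. The 7 members higher in BM than in lung were Ndufaf8, Ndufa13 upstream, Uqcrq, Cox6b2, both Atp5d regions, and Atp5g1.

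Between the other tissues few members were called. There were 0 between LI and lung (10.9% of all regions), 0 between LI and pancreas (3.27%), and 0 between lung and pancreas (5.82%) with edgeR. DESeq2 called 2, 0, and 1. At an unadjusted p under 0.05 with edgeR the member counts were 15, 1, and 9. At that level 12681, 7601, and 10367 of all 49981 regions passed, and 2193, 781, and 1769 of the 14081 promoter regions. Of promoter regions, 3.64%, 0.824%, and 1.51% were called in these contrasts, and 3.16% between LI and SI, 8.47% between lung and SI, and 9.51% between pancreas and SI. Ndufb10 (log2 fold change -1.15 ± 0.26 SE, adjusted p = 0.0123) and Ndufa7 (log2 fold change -0.86 ± 0.25 SE, adjusted p = 0.0443) were lower in LI than in SI, against 8.44% of all regions called in either direction. Between lung and SI (21%), Ndufa5 (log2 fold change 0.68 ± 0.21 SE, adjusted p = 0.0297) and Cox7a1 (log2 fold change 0.79 ± 0.20 SE, adjusted p = 0.00833) were higher in lung and Cox4i2 was lower (log2 fold change -1.58 ± 0.44 SE, adjusted p = 0.0162). Between pancreas and SI (20.5%), Ndufa4 was higher in pancreas (log2 fold change 0.61 ± 0.21 SE, adjusted p = 0.0433), and Ndufb10, Ndufa13 upstream, and Cox5a were lower.

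The study defines tissue-specific open chromatin regions by pairwise contrasts of 1 tissue with each other tissue, and its methods do not say whether the p-values were adjusted. Applied here with edgeR and an unadjusted p under 0.05 in all 4 contrasts, the rule made 11 members BM-specific, against 4.5% of all regions and 6.02% of promoter regions: Cox6b2, Cox7a2l, Ndufa6, both Atp5d regions, Ndufs8, Atp5h, Ndufv1, Atp5g1, Ndufaf8, and Atp5b. Ndufa4 and Ndufa5 were commonly decreased in SI, against 3.59% of all regions and 1.18% of promoter regions. No member was in any other such class, against 14.6% of all regions, and DESeq2 with the same rule gave 13 BM-specific members, 2 decreased in SI, and 0 in the other classes. With adjusted p-values in each of the 4 contrasts, 2 members passed, both of them Atp5d regions. The rule found 13 members in all, but 2 without lung replicate 1, 3 without BM replicate 1, 3 without SI replicate 1, 6 without lung replicate 2, and 23 without SI replicate 2.

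Motif letters and sequence composition were set beside the BM fold changes as descriptions. The median log2 fold change was 0.403 at genes with CGCATGCG and 0.368 without, 0.392 with AANATGGCG and 0.391 without, and 0.424 with CCGGAAG and 0.372 without. It was 0.378 with the Sp1 core and 0.391 without, and 0.381 with the CCAAT letters and 0.391 without. The motifs at fewer genes had medians farther apart, at 0.578 for the 7 genes with the TATA letters and 0.368 without, 0.487 for the 5 genes with CCGGAAGT and 0.381 without, 0.278 for the 4 genes with the cAMP response element and 0.394 without, and 0.161 for the 2 genes with the ERR motif and 0.391 without. None of these differences was tested. The CpG ratio of a region was its count of CG dinucleotides over that expected from its C and G counts. Over the 99 members, Spearman's rho of the BM fold change was 0.096 with GC content, 0.213 with the CpG ratio, and 0.289 with mean CPM. Over the 14081 promoter regions it was 0.172, 0.297, and 0.386. These points share the same libraries.

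Related genes were counted by the same test. In BM, 14.9% of all regions were higher and 17% lower. Of promoter regions, 23% were higher and 5.54% lower, with a median log2 fold change of 0.206. The cytosolic ribosomal protein promoters, among them the Rps28 region shared with Ndufa7, had 53 of 87 regions higher and 2 lower in BM, with a median log2 fold change of 0.489. The mitochondrial ribosomal protein promoters had 23 of 85 higher and 0 lower (median 0.316). Complex IV and cytochrome c assembly genes had 11 of 28 higher (median 0.340), other assembly factors of complexes I, III, and V 3 of 16 (0.269), electron carriers and coenzyme Q genes 5 of 17 (0.316), and tricarboxylic acid cycle genes 5 of 19 (0.221). Regulators of mitochondrial biogenesis had 6 of 22 higher and 0 lower (0.343), and glycolysis genes 5 of 30 higher and 4 lower (0.218). The shares higher were 26.3% for the tricarboxylic acid cycle, 27.3% for the regulators, and 16.7% for glycolysis. The respiratory chain members, at 40 of 99 and 0.365, lay between the cytosolic and the mitochondrial ribosomal protein promoters.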

How the data were processed

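ATAC-seq counts of ILC2s from BM, LI, lung, pancreas, and SI were analysed in 10 libraries, 2 per tissue, grouped by their labels. The authors mapped paired reads to mm10 with Bowtie2 2.2.9, kept unique reads, called peaks with MACS 2.1.1 at a q value of 0.01, kept peaks present in both duplicates of a tissue, merged them with HOMER, and deposited raw read counts per merged region from bedtools. A removal of duplicate or mitochondrial reads and a shift for Tn5 are not given in the sources used here, so counts can hold PCR copies and p-values cover the spread between these libraries only.

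Regions with at least 1 count (49981) were fitted in edgeR 4.0.16 with TMM factors and tissue as the only factor, in R 4.3.3. glmQLFTest compared the 5 tissues, each tissue with the mean of the other 4, and all 10 pairs, with Benjamini-Hochberg adjustment over all regions and a threshold of 0.05. CPM use TMM library sizes, and log2 CPM a prior count of 2. DESeq2, which the study used in a version not given in the sources used here, was an alternative (here 1.42.0), as were other scalings, a filter, a replicate block, removed trends (loess, span 0.3), thinned counts, other member rules, and each library left out. The fit was tested on simulated data. TSS came from RefSeq for GRCm38, and coordinates are those of the table.

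Members, lists, motifs, and tests were chosen with earlier results of these data known. Named members are all those called over the 5 tissues, those with the highest mean CPM or largest range of their group, the 3 smallest p-values in each direction of each contrast of a tissue with the other 4, listed isoforms with their partners, and main catalytic subunits. Other members named in counts were chosen after their values were seen. The values of 1 member are counted but not reported here. No column of the table was left unused.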

Additional observations from a re-analysis of the deposited data

How the results depend on the processing

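The limits are those of 2 libraries per tissue and of a shared scaling. The direction of the BM median was the same in all alternatives, and its size was not. The medians were 0.381 with DESeq2 and with its size factors in edgeR, 0.273 with the GC and width trend removed, 0.281 with library size alone, 0.234 with the mean count trend removed, 0.392 for members with no other gene at the region, 0.394 for promoters from 1000 bp upstream to 100 bp downstream, and 0.16 in the fit of promoter regions only. In LI they were -0.169, -0.369, -0.162, and -0.124 with the GC and width trend removed, library size alone, the mean count trend removed, and promoter regions only. In pancreas they were -0.121, -0.322, and -0.061 with the GC and width trend removed, library size alone, and promoter regions only, and in lung 0.256 with library size alone and -0.017 with the mean count trend removed. The cause of these shifts was not tested, except that a scaling moves all regions alike.

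Over the 5 tissues the count called was 44 with DESeq2 (49.1% of all regions) and 17 with the GC and width trend removed (43.3%). It was 8 in promoter regions only (15.6% of promoter regions) and 10 at an adjusted p under 0.01. It was 17 for members with no other gene at the region, which are fewer by construction because 39 of the 99 are left out. The BM count was 24 with the GC and width trend removed, beside 15.9% of all regions and 13.4% of promoter regions higher in BM. It was 17 with library size alone (9.49% and 10.8% in the same order). With the mean count trend removed it was 23, with 22 higher and 1 lower (16.5% and 15.4%). It was 13 in promoter regions only (7.24% of promoter regions) and 25 for members with no other gene. For these settings in the order DESeq2, GC and width, library size, mean count, no other gene, and promoter regions only, the LI count was 12, 2, 9, 2, 1, and 0. The lung count was 1 with thinned counts, 1 with the mean count trend removed, and 0 in promoter regions only. The pancreas count was 0 with the GC and width trend removed, 2 with thinned counts, and 0 in promoter regions only, and the SI count was 7 with library size, 8 with the mean count trend removed, and 2 for members with no other gene. Calls summed over the 10 pairs were 100, and 61 with the GC and width trend removed, 61 for members with no other gene, and 30 in promoter regions only. The study's classes held 13 members, and 6 with the GC and width trend removed, 0 with library size, 5 with the mean count trend removed, 8 in promoter regions only, and 2 with adjusted p-values.

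Leaving out each library in turn gave 11 to 46 members over the 5 tissues and 4 to 53 in BM, 0 to 16 in LI, 0 to 4 in lung, 0 to 7 in pancreas, and 2 to 10 in SI. The medians ran from 0.308 to 0.387 in BM, -0.273 to -0.176 in LI, 0.038 to 0.114 in lung, -0.223 to -0.135 in pancreas, and -0.147 to 0.089 in SI, pair calls from 24 to 151, and class members from 2 to 23. A tissue left with 1 library was assumed to vary like the others. Of the 40 members higher in BM, 10 were called in all 9 other fits and 3 in all fits without a library, and none changed direction in any fit. The lists restricted to curated transcripts and the filter of 10 counts in 2 libraries changed no count by over 1.5 times; the filter removed no region.

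Deviations of same-numbered libraries of different tissues had correlations from -0.218 to 0.196 over the 10 pairs of tissues. These values gave no sign of pairing by number. They cannot tell whether such libraries shared mice, because other differences between libraries enter the deviations too. With the replicate number as a block, 28 members were called over the 5 tissues and 37 higher in BM, with a BM median of 0.356, and no count changed by over 1.5 times.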
